A study of Mus musculus with 6 samples.

Results

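The genes described here are 40 genes of the unfolded protein response and of protein folding in the endoplasmic reticulum (ER), out of 24214 features in the deposited count tables. They were chosen by name, from a list of symbols, with earlier results of these data known. Every one was found in the files and was counted deeply enough to be tested. They comprise 11 lumenal chaperones and cochaperones, 5 enzymes of disulfide formation, 7 stress sensors and transcription factors, 5 targets of the PERK-ATF4 branch, 9 genes of ER-associated degradation and 3 genes of translocation into the ER. RNA was sequenced from 393P, an epithelial murine lung adenocarcinoma line of mouse strain C57BL/6. The cells were grown in RPMI-1640 with serum and carried either an empty vector (393P_vector, 3 samples) or a vector for ectopic expression of ZEB1, a transcription factor that drives epithelial-to-mesenchymal transition (393P_ZEB1, 3 samples). The labels name no agent that causes ER stress for either group. The study describes its transfectants as stable, selected with puromycin or G418, and the labels do not say whether the replicates were separate transfections or cultures, so the p-values measure the spread between these samples.

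Proteins bound for the secretory pathway enter the ER through the Sec61 channel, fold with the help of chaperones such as BiP (Hspa5) and of disulfide isomerases, and are returned to the cytosol for degradation when they fail to fold. When unfolded proteins accumulate, 3 sensors in the ER membrane respond: IRE1α (Ern1) splices the Xbp1 mRNA, PERK (Eif2ak3) slows translation and favors that of Atf4, and ATF6 is cleaved in the Golgi to release a transcription factor. Spliced XBP1 and cleaved ATF6 act on promoters of chaperone and degradation genes, in part through the ER stress response element (ERSE), while ATF4 acts through composite C/EBP-ATF elements. Counts per gene measure mRNA level only, so Xbp1 splicing, Atf6 cleavage and Atf4 translation were not measured.

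The promoters of the chaperone genes are shown first because the ERSE is the sequence most of them are known for, and the results by gene refer back to it. The scan was chosen after the values of the 40 genes had been seen, and 6 motifs were scanned on both strands of RefSeq promoter windows of 300 bases in GRCm38.p6, from 250 bases before to 50 after the start site. A window was matched for 34 of the 40 genes, and the others were Hyou1, Manf, Atf6, Creb3l1, Derl1 and Sec61a1. The ERSE was spelled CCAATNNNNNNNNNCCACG. In the lines that follow, each sequence reads 5′ to 3′ on the gene's strand, and capitals mark the 2 ends of the ERSE, or their reverse complement where the element lies on the other strand.
Hspa5, chr2:34771840-34772089, plus strand: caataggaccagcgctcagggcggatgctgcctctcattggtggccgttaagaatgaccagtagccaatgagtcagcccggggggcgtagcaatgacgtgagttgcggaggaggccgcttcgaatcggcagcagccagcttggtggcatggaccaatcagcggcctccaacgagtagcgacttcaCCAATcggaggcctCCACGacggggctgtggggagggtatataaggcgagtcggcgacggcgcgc
Hsp90b1, chr10:86705525-86705664, minus strand: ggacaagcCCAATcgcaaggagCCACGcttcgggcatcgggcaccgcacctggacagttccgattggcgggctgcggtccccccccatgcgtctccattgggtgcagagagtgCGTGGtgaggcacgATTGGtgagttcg
Calr, chr8:84847067-84847101, minus strand: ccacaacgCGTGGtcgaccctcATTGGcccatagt
Canx, chr11:50325792-50325826, minus strand: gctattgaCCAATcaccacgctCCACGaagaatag
Dnajc3, chr14:118937819-118937853, plus strand: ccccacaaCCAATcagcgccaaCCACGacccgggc
Creld2, chr15:88819512-88819546, plus strand: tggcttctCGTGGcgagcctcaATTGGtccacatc
Pdia6, chr12:17266483-17266517, plus strand: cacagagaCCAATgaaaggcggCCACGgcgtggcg
Syvn1, chr19:6046524-6046558, plus strand: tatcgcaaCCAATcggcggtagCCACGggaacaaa
Derl3, chr10:75893234-75893268, plus strand: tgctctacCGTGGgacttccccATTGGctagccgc

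These 9 genes were all those among the 34 with an exact ERSE, which was found in 0.119% of 32851 promoter windows. The element began 65 bases before the start site in Hspa5 and between 44 and 212 bases before it in the others, and Hsp90b1 held 2 copies. The promoters of Chac1 and Asns are shown as examples of ATF4 targets that held a C/EBP-ATF element. Trib3, the only target of the PERK-ATF4 branch that was higher, also held it, but its promoter is not shown. Capitals mark the element, spelled TGATGNAA.
Chac1, chr2:119351041-119351064, plus strand: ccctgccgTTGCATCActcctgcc
Asns, chr6:7693217-7693240, minus strand: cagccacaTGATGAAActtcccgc

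TGATGNAA was found in 3.97% of all windows and in 4 of the 34, those of Trib3, Chac1, Asns and Herpud1. Dnajb11 and Herpud1 held ERSE-II (ATTGGNCCACG, 0.0365% of windows), Ppp1r15a held the cyclic AMP response element (TGACGTCA, 1.79%), and none held the core of the XBP1 element (TGACGTGG, 0.676%). The E-box that ZEB1 is known to bind, CACCTG, was found in 8 of the 34 and in 20.2% of all windows. A match describes these letters in this window and shows no binding.

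Sequencing gave between 54442450 and 79158012 counts per sample, and levels are given as CPM (counts relative to the TMM-normalized library size). The floor of detection, taken as 3 counts, was 0.0361 to 0.0561 CPM. Zeb1, the gene the vector carries, was at 21.2 to 22.0 CPM in 393P_vector and 48.9 to 54.9 CPM in 393P_ZEB1 (2.40-fold, adjusted p = 6.06e-05). Its log2 fold change was 1.26, and the median over the tested genes of its chromosome, 18, was 0.64. The 7 epithelial markers summed to between 4713 and 5374 CPM in 393P_vector and between 2746 and 3042 CPM in 393P_ZEB1, and the 5 mesenchymal markers to between 7525 and 8307 CPM and between 10469 and 11773 CPM. The sums follow mainly Krt8, Krt18 and Krt19, and Vim and Fn1. Cldn4, Esrp1, Epcam and Cdh1 were lower by 337-, 215-, 92.7- and 17.1-fold. Krt8 and Krt18 were lower by 1.53- and 1.71-fold, and Krt19 did not pass (adjusted p = 0.0809). Cdh2 and Twist1 were higher by 4.12- and 4.62-fold, and Vim and Fn1 by 1.33- and 1.48-fold. Fibroblast or smooth muscle, leukocyte and endothelial markers summed to at most 11.1 CPM in any sample and did not move one way (Acta2, Pdgfra and Kdr were lower, Col3a1 and Pdgfrb higher), and their part in the results was not tested. The third 393P_vector library stood apart: 24.0% and 28.2% of tested genes differed by over 1.5-fold between it and the other 2, against 4.97% between those 2 and at most 7.49% between 393P_ZEB1 libraries. Whole chromosomes also differed between the groups, with median log2 fold changes from -0.43 on chromosome 17 to 0.64 on chromosome 18 among the autosomes. The 6 tested genes of chromosome Y had a median of -6.89, with 83.3% of them lower and none higher. The cause of these differences was not tested. The chromosome median is given beside each call that was within 2 standard errors of it.

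Across the 40 genes, 6 were higher and 11 lower in 393P_ZEB1 than in 393P_vector at an adjusted p below 0.05 by edgeR's quasi-likelihood test, and 23 did not pass. Of all 13892 genes tested, 18.3% were higher, 19.3% lower and 37.6% changed in either direction, so that 42.5% of the 40 genes changed against that background. The median log2 fold change of the 40 was -0.09, beside -0.02 for all genes tested. In 24 of the 40 the 2 groups did not overlap, as in 52.8% of all genes tested. With the third 393P_vector library left out, all 17 calls were kept and 7 genes were higher and 18 lower, beside 26.2% higher, 26.8% lower and 53.0% in either direction of 14106 genes tested. Leaving out 1 of the other libraries kept between 7 and 12 of the 17 calls, with 7 kept without 393P_ZEB1 replicate 1, 7 without replicate 2 and 8 without replicate 3. Those fits had 3 genes higher each and 4, 5 and 5 lower. Of all genes that passed in those fits, 50.4%, 51.2% and 51.1% were higher. The share of all genes that passed also changed with the library left out, so these counts have no matching background here. Calls on Dnajc3, Creld2, Ern1, Atf6, Creb3l1 and Creb3l2 were kept whichever library was left out. By role, 7 of the 11 lower genes were chaperones or cochaperones, and the sensors and transcription factors went both ways; differences between roles were not tested.

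**Figure D1:**
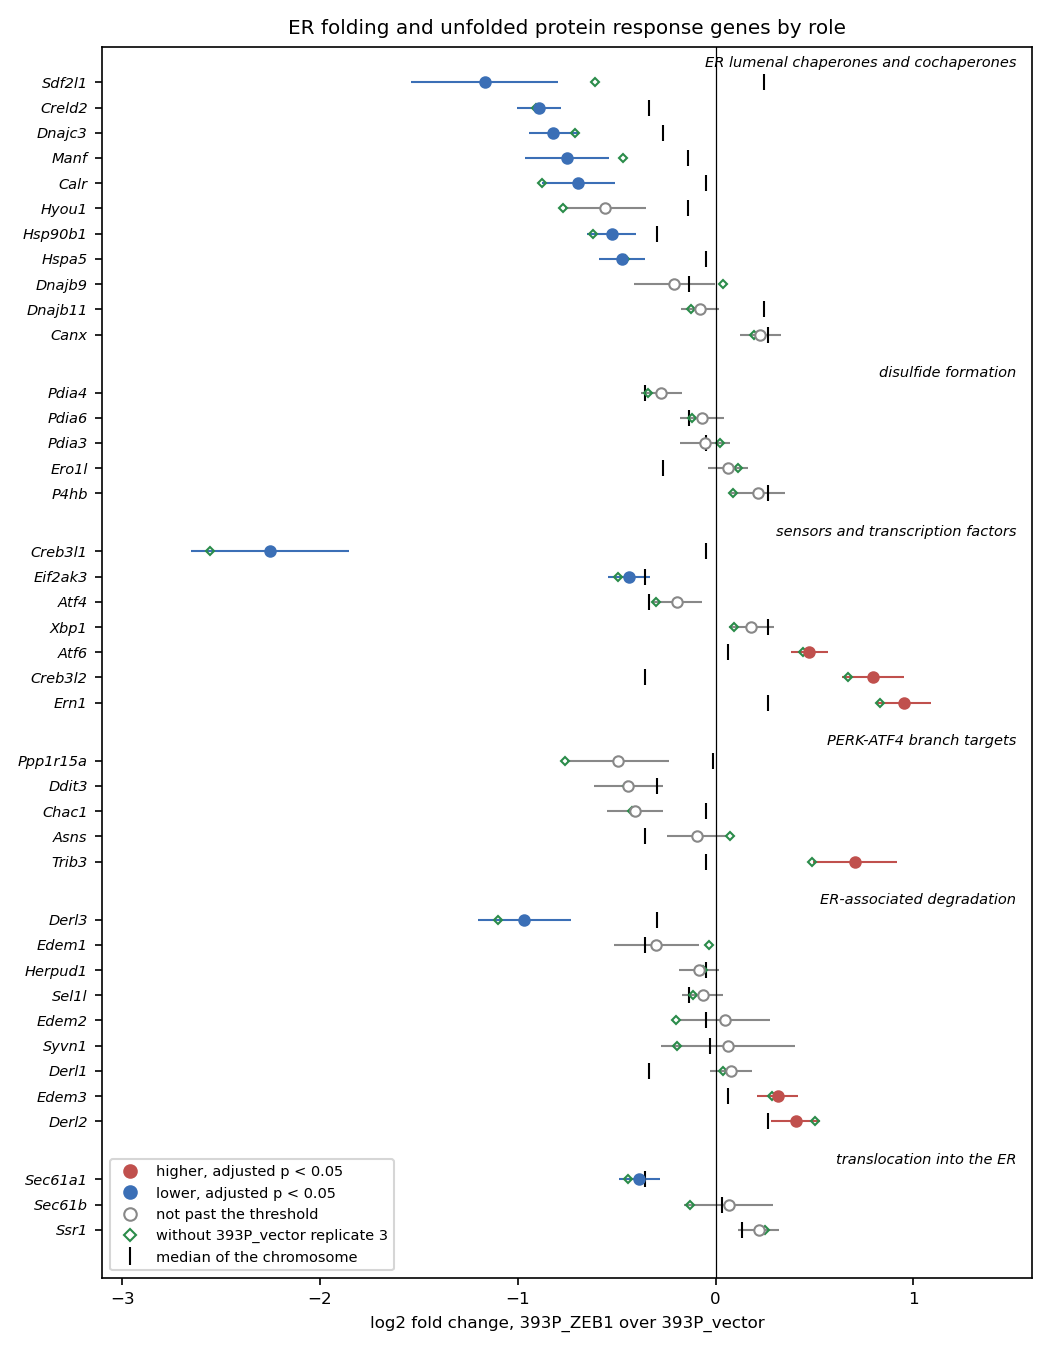
Log2 fold change of each of the 40 genes in 393P_ZEB1 over 393P_vector, by role, with lines of 1 standard error from edgeR (n = 3 samples a group); filled red and blue points are higher and lower at an adjusted p below 0.05, open points did not pass, green diamonds are values without the third 393P_vector library and black ticks the median of the gene's chromosome. Among the chaperones 7 of 11 points are blue and none is red, and Creb3l1 at -2.25 lies farthest from 0.

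Of the 11 chaperones and cochaperones of the ER lumen, 7 were lower, beside 19.3% of all genes tested, none was higher, and the median log2 fold change was -0.56. The count of 7 went to 3, 2 and 4 without 393P_ZEB1 replicates 1, 2 and 3, to 6 without either of the first 2 393P_vector replicates and to 8 without the third. The share of all genes that were lower also changed between these fits and is not set beside each count. The summed level of the 11 genes was 8047, 8230 and 6919 CPM in 393P_vector replicates 1 to 3 and 5838, 5647 and 6101 CPM in 393P_ZEB1 replicates 1 to 3. The 3 sums in 393P_ZEB1 were all below the 3 in 393P_vector, the lowest of which was the third library. These sums follow mainly the most abundant genes, Hspa5, Hsp90b1, Calr, Canx and Hyou1, and say little about the others. The sums over roles were chosen after the values had been seen and are given without a test. Per exon length, Hspa5, Calr and Hsp90b1 were the highest of the 40 genes in 393P_vector, at 804, 708 and 648 RPKM (CPM divided by the exon length in kilobases), and all 3 were lower in 393P_ZEB1, at 578, 438 and 450 RPKM.

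Hspa5 (chr2:34772090-34776529) encodes BiP, the ER Hsp70 that binds unfolded chains and holds the stress sensors inactive. It was at 2014, 2135 and 2139 CPM in 393P_vector and at 1341, 1536 and 1648 CPM in 393P_ZEB1. The groups did not overlap, and the third vector library was level with the second. The log2 fold change was -0.47 ± 0.12 (SE; adjusted p = 0.0151), a level 1.39-fold lower, and the call was lost without 393P_ZEB1 replicate 1 or 2 (highest adjusted p = 0.0605). Hsp90b1 (chr10:86690841-86705444) encodes GRP94, the ER paralog of Hsp90, which folds integrins and Toll-like receptors. It was at 1876, 1914 and 1535 CPM in 393P_vector and at 1250, 1151 and 1299 CPM in 393P_ZEB1. All 393P_ZEB1 samples were below all 393P_vector samples, by 1.44-fold in the fit (log2 fold change -0.53 ± 0.13 SE, adjusted p = 0.0135). The chromosome 10 median was -0.30, which is 1.84 standard errors away, and the call was lost without 393P_ZEB1 replicate 2 (adjusted p = 0.0688).

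Calr (chr8:84842088-84846931) encodes calreticulin, a lectin that retains glycoproteins for folding and buffers calcium. Its levels were 1536, 1571 and 999 CPM in 393P_vector and 908, 779 and 852 CPM in 393P_ZEB1. The third 393P_vector library lay closer to 393P_ZEB1 than to its own group, without overlap. The log2 fold change of -0.69 ± 0.18 SE (adjusted p = 0.0206) became -0.88 without that library, and the call was lost when any of the other 5 was left out (adjusted p up to 0.0862). Canx, the membrane-bound counterpart of Calr, was at 1246, 1197 and 1144 CPM in 393P_vector and 1480, 1323 and 1392 CPM in 393P_ZEB1, and did not pass (log2 fold change 0.23 ± 0.10 SE, adjusted p = 0.126, chromosome 11 median 0.27). Canx holds an exact ERSE as Calr does, and its groups did not overlap although its adjusted p missed the threshold.

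Dnajc3 (chr14:118937932-118981702) encodes a J-domain cochaperone of BiP that also inhibits PERK. Its levels were 65.0, 61.5 and 78.5 CPM in 393P_vector and 39.9, 38.4 and 37.9 CPM in 393P_ZEB1. The groups were far apart relative to their spread, with the third vector library the highest, and the log2 fold change was -0.82 ± 0.12 SE (adjusted p = 0.00151), or 1.77-fold lower. Creld2 (chr15:88819646-88826681) encodes a secreted ER stress-inducible protein with disulfide isomerase activity. Its levels were 115, 124 and 116 CPM in 393P_vector and 61.6, 58.8 and 71.0 CPM in 393P_ZEB1. Creld2 had the smallest adjusted p of the 40 genes (0.000515), with a log2 fold change of -0.89 ± 0.11 SE and the third vector library within its group.

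Manf (chr9:106887415-106891938) encodes a small ER protein that binds BiP and is secreted under stress. Its levels were 123, 129 and 208 CPM in 393P_vector and 78.8, 100 and 94.0 CPM in 393P_ZEB1. The third vector library was the highest by a wide margin, and without it the log2 fold change went from -0.75 ± 0.21 SE (adjusted p = 0.0274) to -0.47 with the call kept. Sdf2l1 (chr16:17130138-17132383) encodes a subunit of an ER chaperone complex with Dnajb11. It was at 5.57, 5.78 and 13.6 CPM in 393P_vector and at 2.82, 4.01 and 4.29 CPM in 393P_ZEB1. Again the third vector library stood highest, and the log2 fold change went from -1.17 ± 0.37 SE (adjusted p = 0.0420) to -0.61 without it. Both calls were lost when any single 393P_ZEB1 library was left out (adjusted p up to 0.113 for Manf and 0.153 for Sdf2l1).

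Hyou1, Dnajb9 and Dnajb11 were the other chaperones that did not pass. Hyou1, a large Hsp70 relative that exchanges nucleotide on BiP, was at 931, 961 and 555 CPM in 393P_vector and 548, 538 and 579 CPM in 393P_ZEB1, so the groups overlapped through the third vector library. Its log2 fold change was -0.56 ± 0.20 SE (adjusted p = 0.0665), and it was lower without that library (-0.77, adjusted p = 1.53e-05). Dnajb9, a J-domain protein that delivers BiP to IRE1α, had a log2 fold change of -0.21 ± 0.21 SE, which turned to 0.04 without the third vector library. Dnajb11, a J-domain protein that loads substrates on BiP, was at 103 to 119 CPM in every sample (log2 fold change -0.08 ± 0.10 SE).

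**Figure D2:**
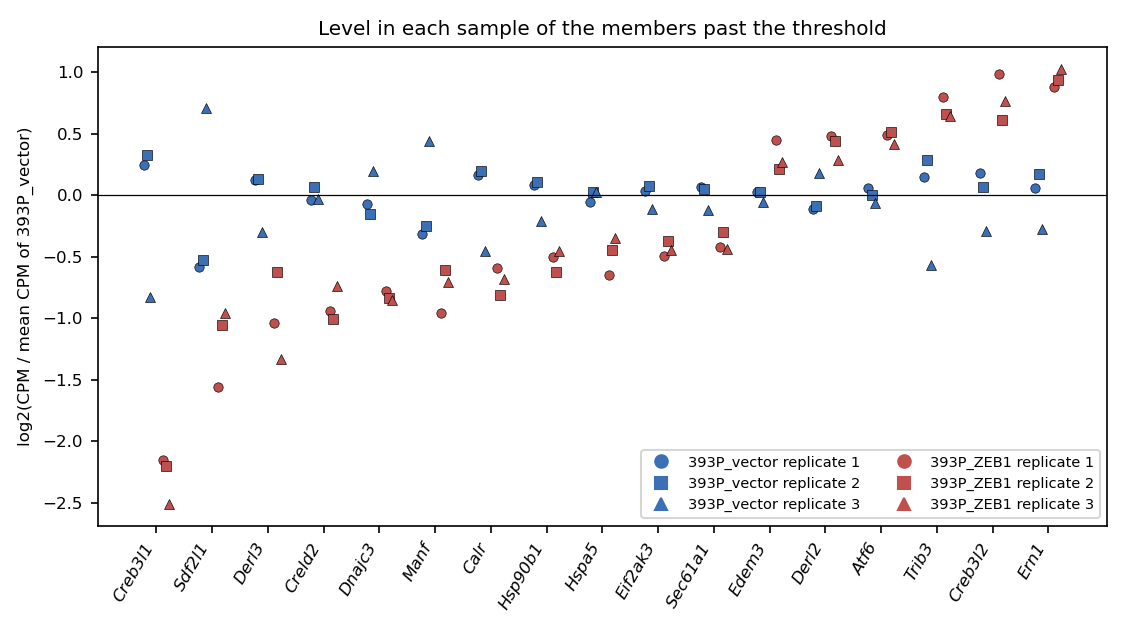
Level of the 17 genes past the threshold in each sample, as log2 of CPM over the mean CPM of 393P_vector; blue marks are 393P_vector, red marks 393P_ZEB1, and circles, squares and triangles are replicates 1, 2 and 3. In all 17 genes the red marks lie on one side of the blue ones, and the blue triangle stands away from the other blue marks for Creb3l1, Sdf2l1, Manf, Calr and Trib3.

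Of the 5 genes of disulfide formation none passed, beside 37.6% of all genes tested, and their median log2 fold change was -0.05. Summed levels ran from 2852 to 3084 CPM in 393P_vector and from 2940 to 3127 CPM in 393P_ZEB1 and overlapped. The isomerases Pdia3 (-0.05 ± 0.13 SE, adjusted p = 0.773) and Pdia6 (-0.07 ± 0.11 SE, adjusted p = 0.669) and the oxidase Ero1l (0.06 ± 0.10 SE, adjusted p = 0.662) had log2 fold changes near 0. P4hb, the archetypal protein disulfide isomerase and also a subunit of prolyl 4-hydroxylase, was at 1141, 1136 and 854 CPM in 393P_vector and 1222, 1207 and 1206 CPM in 393P_ZEB1. The groups of P4hb did not overlap, but the difference was below the threshold (log2 fold change 0.22 ± 0.14 SE, adjusted p = 0.249). Pdia4, a larger isomerase with an extra catalytic domain, was at 461, 447 and 393 CPM and at 364, 357 and 356 CPM, and did not pass (-0.27 ± 0.10 SE, adjusted p = 0.0729, chromosome 6 median -0.36), although it was lower without the third vector library (-0.34, adjusted p = 0.00248). The interval of Pdia4 holds a microRNA gene, Mir704, and that of Pdia6 shares 50 bases with Atp6v1c2 on the other strand.

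**Figure D3:**
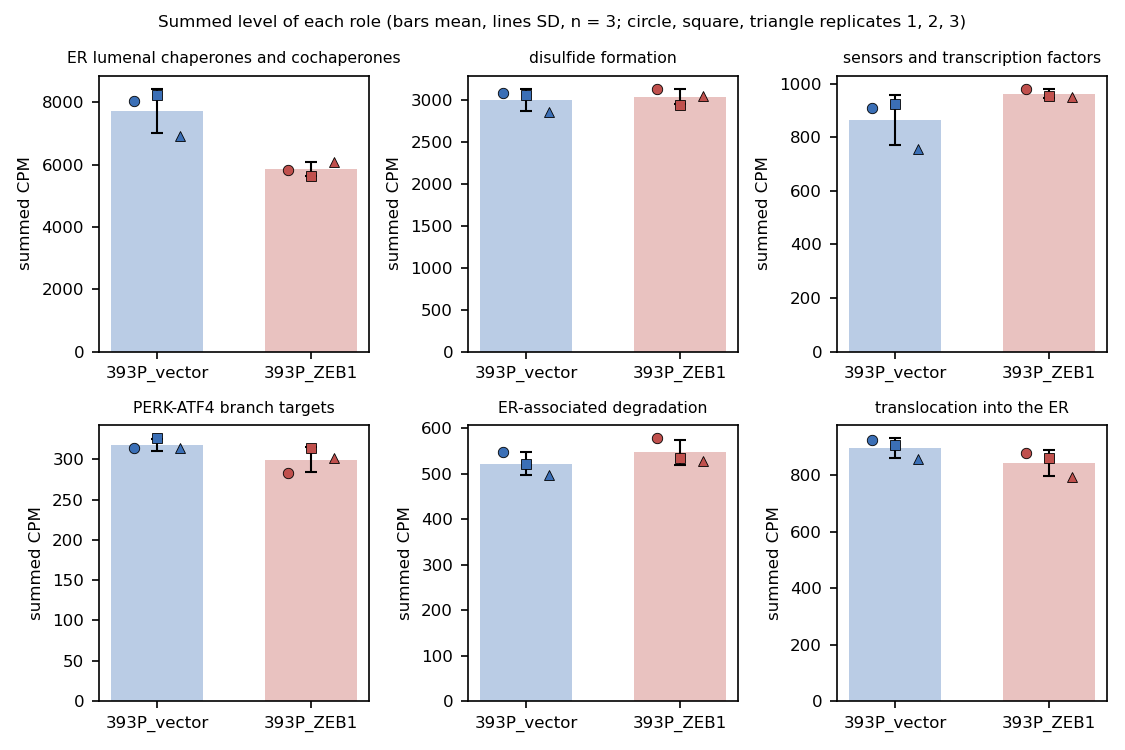
Summed CPM of the genes of each role in each sample, in 6 panels with axes from 0; bars are group means, lines the SD (n = 3), blue is 393P_vector, red is 393P_ZEB1, and circles, squares and triangles are replicates 1, 2 and 3. The chaperone sums of 393P_ZEB1, at most 6101 CPM, lie below those of 393P_vector, at least 6919 CPM, while the sums of disulfide formation overlap. The most abundant genes of a role weigh most in its sum.

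The sensors and transcription factors went both ways: Ern1, Atf6 and Creb3l2 were higher, Eif2ak3 and Creb3l1 were lower, and Xbp1 and Atf4 did not pass. Of all genes tested, 18.3% were higher and 19.3% lower. Ern1 (chr11:106397620-106487796) encodes IRE1α, the kinase and endoribonuclease that splices Xbp1 mRNA. Its levels were 39.1, 42.1 and 31.0 CPM in 393P_vector and 68.9, 71.7 and 76.3 CPM in 393P_ZEB1. The lowest 393P_ZEB1 sample was well above the highest 393P_vector sample, and the rise was 1.93-fold (log2 fold change 0.95 ± 0.14 SE, adjusted p = 0.00129). Xbp1, its substrate, was at 76.5, 73.4 and 62.1 CPM in 393P_vector and 83.4, 79.7 and 77.1 CPM in 393P_ZEB1, with the lowest value in the third vector library. The groups of Xbp1 were apart by a small margin that did not pass (log2 fold change 0.18 ± 0.11 SE, adjusted p = 0.247).

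Atf6 (chr1:170704457-170867771), the sensor that becomes a transcription factor after cleavage, was at 215, 207 and 197 CPM in 393P_vector and 291, 295 and 276 CPM in 393P_ZEB1. The values were tight within both groups, and the rise was 1.39-fold (log2 fold change 0.47 ± 0.09 SE, adjusted p = 0.00569). Creb3l1 and Creb3l2 encode OASIS and BBF2H7, membrane-bound relatives of ATF6 that are cleaved in the same way and are known for secretory and matrix genes. Creb3l2 (chr6:37331021-37442148) was at 63.4, 58.4 and 45.7 CPM in 393P_vector and 111, 85.3 and 95.0 CPM in 393P_ZEB1, a rise of 1.74-fold (log2 fold change 0.80 ± 0.16 SE, adjusted p = 0.00578). The rise of Creb3l2 went against the median of chromosome 6, which was -0.36. Creb3l1 (chr2:91982328-92024170) was at 0.883, 0.935 and 0.421 CPM in 393P_vector and 0.168, 0.162 and 0.131 CPM in 393P_ZEB1. It was the least abundant of the 40 genes, with 8 or 9 reads in each 393P_ZEB1 sample, and was lower by 2.25 ± 0.40 SE on the log2 scale (adjusted p = 0.00355).

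Eif2ak3 (chr6:70844527-70905240) encodes PERK, which phosphorylates eIF2α. Its levels were 41.5, 42.5 and 37.4 CPM in 393P_vector and 28.8, 31.2 and 29.6 CPM in 393P_ZEB1. The groups did not overlap, and the level was 1.35-fold lower (log2 fold change -0.44 ± 0.11 SE, adjusted p = 0.0153), but the chromosome 6 median was -0.36 and the call was lost when any library but the third vector one was left out (adjusted p up to 0.0715). Atf4, the transcription factor translated after eIF2α phosphorylation, was at 473, 499 and 382 CPM in 393P_vector and 398, 392 and 394 CPM in 393P_ZEB1. The third vector library was the lowest of all and made the groups overlap, and Atf4 did not pass (log2 fold change -0.19 ± 0.12 SE, adjusted p = 0.255) unless it was left out (-0.30, adjusted p = 0.00573, chromosome 15 median -0.33).

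Of the 5 targets of the PERK-ATF4 branch, Trib3 alone was higher, none was lower, and the median log2 fold change was -0.41. Among all genes tested, 18.3% were higher and 19.3% lower. Trib3 (chr2:152337425-152344060), a pseudokinase induced by ATF4 and CHOP, was at 41.3, 45.4 and 25.2 CPM in 393P_vector and 65.0, 59.0 and 58.2 CPM in 393P_ZEB1. The groups did not overlap, and the third vector library was the lowest. The log2 fold change was 0.70 ± 0.21 SE (adjusted p = 0.0335), or 0.49 without that library, and the call was lost when any 393P_ZEB1 library was left out (adjusted p up to 0.114).

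Ddit3 encodes CHOP, a transcription factor linked to death of stressed cells. Its levels were 22.9, 24.2 and 23.2 CPM in 393P_vector and 12.9, 19.4 and 19.5 CPM in 393P_ZEB1. The groups did not overlap, yet Ddit3 did not pass (log2 fold change -0.44 ± 0.17 SE, adjusted p = 0.0840), and 68 of its bases overlap Mars on the opposite strand, whose reads cannot be told apart unless strand was used in counting. Ppp1r15a, which encodes GADD34, the phosphatase subunit that restores translation, was at 79.1, 87.1 and 41.2 CPM in 393P_vector and 45.1, 47.8 and 54.5 CPM in 393P_ZEB1. The third vector library was the lowest of the 6 and the groups overlapped (log2 fold change -0.49 ± 0.26 SE, adjusted p = 0.176).

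Chac1, an enzyme that degrades glutathione, was at 20.0, 22.7 and 20.7 CPM in 393P_vector and 14.5, 18.6 and 14.7 CPM in 393P_ZEB1. The groups of Chac1 did not overlap and the adjusted p was just above the threshold (0.0553; log2 fold change -0.41 ± 0.14 SE), and below it without 393P_ZEB1 replicate 2 (0.0432). Asns, asparagine synthetase, was at 150, 147 and 204 CPM in 393P_vector and 145, 169 and 155 CPM in 393P_ZEB1, and the groups overlapped (log2 fold change -0.09 ± 0.15 SE, adjusted p = 0.651). Without the third vector library Ddit3 (-0.45, adjusted p = 0.0455), Ppp1r15a (-0.76, adjusted p = 9.86e-05) and Chac1 (-0.42, adjusted p = 0.0207) were lower, Trib3 stayed higher and Asns was at 0.07. The targets of this branch therefore did not share 1 direction in either fit.

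Among the 9 genes of ER-associated degradation, Derl2 and Edem3 were higher, Derl3 was lower and 6 did not pass, with a median log2 fold change of 0.05. The shares over all genes tested were 18.3% higher and 19.3% lower. The Derlins are membrane proteins of the channel through which misfolded proteins leave the ER. Derl2 (chr11:71007445-71019263) was at 41.1, 41.8 and 50.3 CPM in 393P_vector and 61.8, 60.3 and 54.2 CPM in 393P_ZEB1 (log2 fold change 0.40 ± 0.12 SE, adjusted p = 0.0346, chromosome 11 median 0.27). Derl3 (chr10:75893398-75895941) was at 4.68, 4.71 and 3.49 CPM in 393P_vector and 2.09, 2.79 and 1.70 CPM in 393P_ZEB1 (log2 fold change -0.97 ± 0.23 SE, adjusted p = 0.0144). Derl1 was at 83.3 to 95.0 CPM in 393P_vector and 85.5 to 98.0 CPM in 393P_ZEB1 and did not pass (log2 fold change 0.08 ± 0.11 SE). The 3 Derlins thus differed in their values: per exon length, Derl1 and Derl2 were at 28.1 and 12.3 RPKM in 393P_vector and Derl3 at 3.23 RPKM. The call on Derl3 was lost without 393P_ZEB1 replicate 1 or 3 (adjusted p up to 0.0626), and that on Derl2 without any library but the third vector one (adjusted p up to 0.120).

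The EDEM proteins trim mannose from glycoproteins bound for degradation. Edem3 (chr1:151755374-151822328) was at 89.4, 89.8 and 84.6 CPM in 393P_vector and 120, 102 and 106 CPM in 393P_ZEB1. The groups did not overlap, and its change was the smallest in size of the 17 that passed (log2 fold change 0.31 ± 0.10 SE, adjusted p = 0.0456), lost without any library but the third vector one (adjusted p up to 0.137). Edem1 (-0.30 ± 0.21 SE, adjusted p = 0.307) did not pass. Edem2 was at 83.9, 84.2 and 45.1 CPM in 393P_vector and 75.5, 73.4 and 71.1 CPM in 393P_ZEB1, so its direction turned with the third vector library, from 0.05 with it (adjusted p = 0.893) to -0.20 without it (adjusted p = 0.0462). The ubiquitin ligase Syvn1, at 5.84 to 14.7 CPM over the 6 samples, had the widest error of the genes that did not pass (log2 fold change 0.06 ± 0.34 SE), and it shares 89 bases with Mrpl49 on the other strand. Its partner Sel1l (-0.07 ± 0.10 SE, adjusted p = 0.653) and Herpud1 (-0.08 ± 0.10 SE, adjusted p = 0.557), a membrane protein that recruits the ligase complex, also did not pass.

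Of the 3 genes of translocation, Sec61a1 (chr6:88503607-88518800), the pore of the channel, was lower, as were 19.3% of all genes tested. It was at 507, 501 and 447 CPM in 393P_vector and 361, 394 and 359 CPM in 393P_ZEB1, without overlap (log2 fold change -0.39 ± 0.10 SE, adjusted p = 0.0222). Its change lay within 1 standard error of the chromosome 6 median of -0.36, and the call was lost without any library but the third vector one (adjusted p up to 0.103). Sec61b, the small β subunit, had a log2 fold change of 0.07 ± 0.22 SE (adjusted p = 0.840), which was -0.13 without the third vector library. Ssr1, a subunit of the translocon-associated protein complex, was at 358, 344 and 374 CPM in 393P_vector and 449, 418 and 386 CPM in 393P_ZEB1. The groups of Ssr1 did not overlap, but it did not pass (log2 fold change 0.22 ± 0.10 SE, adjusted p = 0.136) unless the third vector library was left out (0.25, adjusted p = 0.0306).

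Of the 17 calls, 13 lay more than 2 standard errors from the median of their chromosome in the direction of the call. The exceptions were Hsp90b1, Eif2ak3, Derl2 and Sec61a1, on chromosomes 10, 6, 11 and 6. The matching share over all genes that passed is not given, so the 13 are not set against a background. Set against the motifs, 6 of the 9 genes with an exact ERSE were lower, none was higher and 3 (Canx, Pdia6 and Syvn1) did not pass, with a median log2 fold change of -0.53. Of the 25 genes with a window but no exact ERSE, 2 were lower and 5 higher. Of all genes tested, 19.3% were lower and 18.3% higher. Manf, Creb3l1 and Sec61a1, which were lower, and Atf6, which was higher, had no window and are not in this contrast. Among the lower genes with the element, only Dnajc3 and Creld2 kept the call whichever library was left out. Outside the 40 genes, 8 tested genes had an exact ERSE, of which 2 (Alg12 and Pan2) were lower and 1 (Adcy3) higher. Genes with and without the element also differ in role, since 6 of the 9 are chaperones or cochaperones, and this contrast was chosen after the values were seen. Of the 8 genes with the E-box, 3 were lower and none higher, and of the 26 without it 5 were lower and 5 higher. Those 3 were Hsp90b1, Eif2ak3 and Derl3, and Hsp90b1 and Derl3 also held an ERSE. Of the 4 genes with the C/EBP-ATF element 1 was higher and none lower, and the 2 with ERSE-II did not pass.

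**Figure D4:**
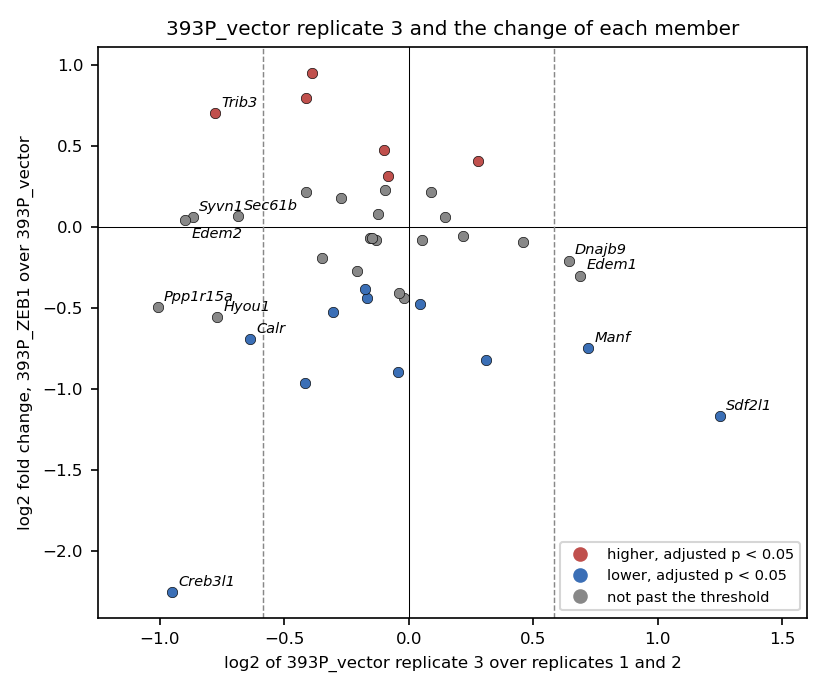
For each of the 40 genes, the log2 ratio of 393P_vector replicate 3 over the mean of replicates 1 and 2 (x axis) and the log2 fold change of 393P_ZEB1 over 393P_vector (y axis); red and blue points passed as higher and lower, grey points did not pass, and dashed lines mark 1.5-fold. The 12 named genes lie beyond 1.5-fold, from -1.01 for Ppp1r15a to 1.25 for Sdf2l1, and since replicate 3 enters both axes no relation is read from the plot.

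The third 393P_vector library differed by over 1.5-fold from the mean of the other 2 in 12 of the 40 genes, in both directions. By the same measure it differed in 24.9% of all genes tested. It was higher for Sdf2l1, Manf, Edem1 and Dnajb9, and lower for Ppp1r15a, Creb3l1, Edem2, Syvn1, Trib3, Hyou1, Sec61b and Calr. Chaperones were thus on both sides, with 5 of the 11 beyond 1.5-fold. Nothing in the labels sets this sample apart, but it had the most counts of all samples (79158012) and the highest TMM factor (1.05). Its part in the calls was measured only by leaving it out, and the part of depth was not tested.

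Related genes from lists that did not enter the 40 were counted to place them: 142 genes were listed, 138 were in the files and 134 were tested, of which 24 were higher and 17 lower, with a median log2 fold change of -0.02. The share changed in either direction was 30.6%, below the 37.6% of all genes tested (18.3% higher and 19.3% lower). Without the third vector library 39 were higher and 33 lower, 72 of the 134 beside 53.0% of all genes. Other ER folding enzymes had 8 of 26 higher and 2 lower, other degradation genes 3 of 19 higher and none lower, and the translocon, signal peptidase and oligosaccharyltransferase 3 of 30 higher and 2 lower. The 3 higher genes of the last list became 9 without the third vector library and none without any other. The share of all genes that were higher also changed between those fits. Other ATF4-linked stress genes had 7 of 24 higher and 1 lower, other stress kinases, proteases and ER stress regulators 1 of 18 higher and 4 lower, and cytosolic and mitochondrial heat shock genes 2 of 17 higher and 8 lower. The cytosolic Hspa1a and Hspa1b are near-identical copies whose reads cannot be assigned with certainty.

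**Figure D5:**
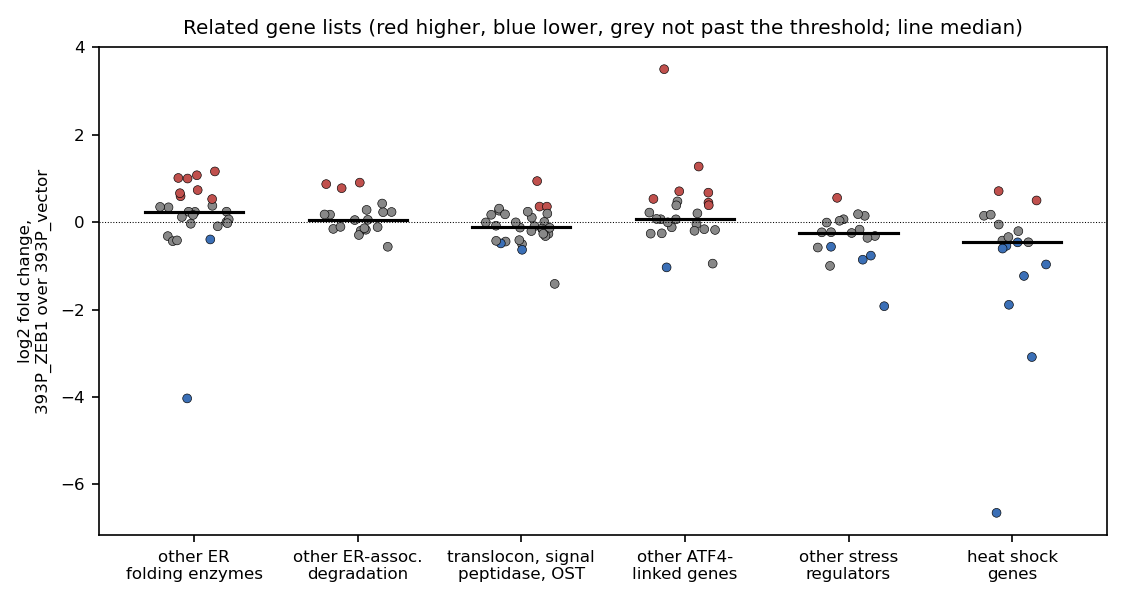
Log2 fold change in 393P_ZEB1 over 393P_vector of the tested genes in the 6 related lists; each point is a gene, red higher and blue lower at an adjusted p below 0.05, grey not past the threshold, and black lines are medians. The heat shock list has the lowest median (-0.46) and the other ER folding enzymes the highest (0.24).

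Among the other folding enzymes, Dnajc10, an ER disulfide reductase that works with BiP, rose from 318 ± 17 to 669 ± 38 CPM (SD, n = 3; log2 fold change 1.07, adjusted p = 0.000141). Sil1, a nucleotide exchange factor of BiP, was higher by 1.16 on the log2 scale (adjusted p = 0.00137), on chromosome 18 with its median of 0.64. Uggt2, a paralog of the glucosyltransferase that senses misfolded glycoproteins, was lower by 4.03 on the log2 scale (adjusted p = 0.000102), from 5.73 to 0.344 CPM. Serpinh1, the collagen chaperone HSP47, was lower by 0.39 (adjusted p = 0.0266). Of the BiP partners named here, Dnajc10 and Sil1 were thus higher, Dnajc3 and Manf were lower, and Hyou1, Dnajb9 and Dnajb11 did not pass.

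In the degradation list Ufd1l (0.91, adjusted p = 0.000382), a cofactor of the p97 ATPase, and Faf2 (0.87, adjusted p = 0.000700), which recruits p97 to the ER membrane, had the highest log2 fold changes. In the translocon list Sec11c (0.94, adjusted p = 0.0290, chromosome 18 median 0.64), a catalytic subunit of signal peptidase, and Sec62 (0.36, adjusted p = 0.0362) were higher. Rpn1, a subunit of oligosaccharyltransferase (-0.49, adjusted p = 0.00467, chromosome 6 median -0.36), and Sec61a2, a paralog of Sec61a1 (-0.63, adjusted p = 0.0437), were lower. Sec61a1 and Sec61a2 were thus both lower, and Sec61a2 went to -0.36 without the third vector library.

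Gdf15, a secreted stress cytokine, had the largest rise of the ATF4-linked genes, from 0.234 ± 0.067 to 2.72 ± 0.48 CPM (SD, n = 3; log2 fold change 3.50, adjusted p = 5.87e-05). Pycr1, which makes proline, was higher by 1.27 (adjusted p = 0.000907), and Ddit4, an inhibitor of mTORC1, was lower by 1.03 (adjusted p = 0.00272), both on the log2 scale. Atf6b, the paralog of Atf6, was lower (-0.77, adjusted p = 0.00467, chromosome 17 median -0.43), so the 2 ATF6 genes went opposite ways. Mbtps1, the protease that makes the first cut in ATF6, was higher (0.56, adjusted p = 0.00691), and Bak1, a death effector, was lower (-0.86, adjusted p = 0.00467).

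Of the heat shock genes, Hspb8 and Cryab, both small heat shock proteins, had the lowest log2 fold changes, while another, Hspb1, did not pass (0.17, adjusted p = 0.573). Hspb8 went from 8.49 ± 1.84 to 0.0817 ± 0.0144 CPM (SD, n = 3; log2 fold change -6.65, adjusted p = 3.15e-06), close to the floor of detection, and Cryab from 28.1 ± 8.07 to 3.30 ± 0.24 CPM (log2 fold change -3.09, adjusted p = 3.17e-05). Hspa9, the mitochondrial Hsp70 (0.71, adjusted p = 0.00128, chromosome 18 median 0.64), and Hspa4, a cytosolic exchange factor of Hsp70 (0.50, adjusted p = 0.00627), were higher. The summed heat shock level was 9573, 10006 and 7003 CPM in 393P_vector and 7231, 7444 and 7556 CPM in 393P_ZEB1, so the third vector library was the lowest of all 6 and the groups overlapped.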

How the data were processed

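The data were 6 RNA sequencing libraries of 393P transfectants, made from total RNA with a SOLiD kit and grouped by their labels into 393P_vector (n = 3) and 393P_ZEB1 (n = 3). For each sample the authors deposited unnormalized read counts for 24214 features, with exon length, coordinates and an RPKM. The deposited RPKM was used only as a check, and implied 99.1% to 99.3% of the summed counts. The aligner, the counter and any use of strand are not given in the sources used here. File coordinates overlapped GRCm38.p6 for 99.2% of 22876 matched RefSeq genes.

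Counts were tested with edgeR 4.0.16 in R 4.3.3 (filterByExpr with a minimum count of 10, TMM, robust quasi-likelihood fit, Benjamini-Hochberg adjustment over 13892 genes, threshold 0.05). CPM used normalized library sizes, and RPKM in the text was computed from the counts and the exon length. The fit was also run with limma 3.58.1, with DESeq2 1.42.0, with other scalings and filters, and with each library left out. An exact permutation test of 3 samples against 3 cannot give a p below 0.1. Other tables were made in Python 3.11.15 with pandas 2.3.3. On simulated counts for this comparison (13892 genes, 2 runs per fold) edgeR recovered 7.75% of genes changed 1.5-fold, 73.5% of those changed 2-fold and 98% of those changed 4-fold, with 3.88% to 6.11% false calls. The simulation changed far fewer genes than the 5218 that passed here, and gave every gene the same dispersion. Its shares are therefore not the recovery in these data, where Edem3 passed at 1.24-fold. Most changes of the 40 genes were below 2-fold, so a gene that did not pass may still have changed.

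The 40 genes, the related lists, the marker lists and several alternatives were chosen with earlier results of these data known. All 40 genes were named, with values per sample for those past the threshold, for Ern1, Eif2ak3, Atf6, Xbp1 and Atf4, and for the PERK-ATF4 targets. From each related list at most 2 genes per direction with a mean of at least 1 CPM were named, by size of change. The promoter motifs, the sums over roles and the comparison of the third vector library were added after the values had been seen, and other per-sample values were given where the groups or that library called for them. Mzb1, Vimp, Fam8a1 and Rtcb were listed but not matched to a row of the files, and 1 of 4 erythroid markers was matched, at 0 to 0.0187 CPM.

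Replicates carry the numbers 1 to 3 in each group. Deviations from the group means correlated between -0.151 and 0.225 for equal numbers and between -0.140 and 0.178 for unequal ones, so the samples were not taken as paired.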

Additional observations from a re-analysis of the deposited data

How the results depend on the processing

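Of the 40 genes, 6 were higher and 11 lower. With limma voom and sample weights, which gave the third vector library a weight of 0.111, 17 were lower, the median log2 fold change moved to -0.16, 43 and 40 related genes and 3977 and 4094 of all genes were higher and lower. Tested against a fold change of 1.5, 1 and 2 of the 40, 7 and 7 related genes and 1081 and 1118 genes were higher and lower. At an adjusted p below 0.01 these were 3 and 3, 15 and 11, and 1584 and 1545. Leaving out 1 library gave 3 to 7 of the 40 higher and 4 to 18 lower, 17 to 39 related genes higher and 13 to 33 lower, and 1861 to 3700 genes higher and 1784 to 3776 lower. The 18, 39 and 33 were without 393P_vector replicate 3. The median stayed between -0.13 and -0.09, and was -0.03 after subtraction of chromosome medians.

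After that subtraction the sign turned in 9 of the 23 genes that did not pass: Canx (-0.04), Pdia4 (0.08), Pdia6 (0.07), P4hb (-0.05), Xbp1 (-0.09), Atf4 (0.14), Asns (0.26), Sel1l (0.07) and Edem1 (0.06). Under the other alternatives it turned in 8 of the 23, and under none of the alternatives in the 17 that passed. Without 393P_vector replicate 3, Dnajb9 went to 0.040, Pdia3 to 0.02, Asns to 0.074, Syvn1 to -0.19, Edem2 to -0.20 and Sec61b to -0.13. Under voom, Asns went to 0.09, Syvn1 to -0.28, Edem2 to -0.18, Derl1 to -0.0093 and Sec61b to -0.21. Pdia3 went to 0.031 and Syvn1 to -0.06 without 393P_ZEB1 replicate 2, Pdia6 to 0.0088 and Sec61b to -0.12 without 393P_ZEB1 replicate 1, and Syvn1 to -0.05 without 393P_vector replicate 2. With 1 library left out the values ran from -0.34 to 0.04 for Dnajb9, -0.13 to 0.03 for Pdia3, -0.12 to 0.0088 for Pdia6, -0.18 to 0.07 for Asns, -0.19 to 0.53 for Syvn1, -0.20 to 0.19 for Edem2 and -0.13 to 0.18 for Sec61b.

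With the replicate number as a block, 4 of the 40 were higher and 10 lower; Edem3 (adjusted p = 0.103), Derl2 (0.0859) and Sec61a1 (0.0583) no longer passed and no other call changed. 2 of 6 samples correlated best with their own number, as a hint from the data only. Sdf2l1 (0.0518) and Derl2 (0.0610) no longer passed with total-count scaling, nor Edem3 (0.0727) and Derl2 (0.0557) with no filter on low counts. Hyou1 passed with DESeq2 (0.0352), with no filter (0.0494) and with total-count scaling (0.0484), Chac1 with DESeq2 (0.0306) and Pdia4 with total-count scaling (0.0403). DESeq2 size factors, upper-quartile scaling and leaving out the 10 most counted genes changed no call among the 40, nor did a minimum of 10 counts in every sample, under which Creb3l1 was not tested. The causes were not tested. Depth limits Creb3l1 most, with 8 or 9 reads in each 393P_ZEB1 library.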
